A study of Mus musculus with 22 samples.

Results

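Regulators of G protein signalling (RGS proteins) form a gene family of which 9 genes are described here: Rgs1, Rgs2, Rgs3, Rgs10, Rgs11, Rgs14, Rgs16, Rgs18 and Rgs19. They were chosen by gene symbol, through the Ensembl identifier of each row, from the 49671 genes of the count table, and all 9 were found. RNA sequencing had been done on mouse TH2 cells, the T helper subset that makes IL-4, IL-5 and IL-13, to ask which genes calcitriol, the active hormone form of vitamin D, changes in them. The calcitriol group held 11 libraries from wild-type cells given 100 nM calcitriol for the last 24 hours of culture, and the vehicle group 11 libraries from wild-type cells given 2% ethanol, the solvent. RNA was taken on day 5 of polarization from cells of Balb/c mice of both sexes, bred for generations on feeds that differed in vitamin D3. The labels do not tie a library to a mouse, sex, diet or culture, so p-values measure the spread between libraries, which may be partly technical. An ethanol content of the calcitriol cultures is not given there.

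G protein-coupled receptors, among them the chemokine receptors that steer T cells, signal by loading the alpha subunit of a heterotrimeric G protein with GTP. RGS proteins bind the loaded alpha subunit and speed up its hydrolysis of GTP, which ends the signal. Rgs1, Rgs2, Rgs3, Rgs16 and Rgs18 belong to the R4 subfamily, most of whose members are small proteins with little besides the RGS domain. Rgs10 and Rgs14 belong to the R12 subfamily, Rgs11 to the R7 subfamily, whose proteins pair with the beta subunit Gnb5, and Rgs19 to the RZ subfamily.

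Total counts per library ran from 3214171 to 12431051 in the calcitriol group and from 3618784 to 20258430 in the vehicle group. On the second principal component of the 500 most variable genes, which held 14.3% of the variance, replicates 1 and 2 of both groups lay apart, at -16.8 to -12.4 against -6.56 to 11.2 for the other 18 libraries. T cell markers were abundant, with Cd4 at 690 ± 45.2 CPM in calcitriol and 755 ± 37.7 CPM in vehicle libraries (TMM-normalised counts per 1000000 reads, SD, n = 11 each). The 7 T cell and TH2 markers (Cd3e, Cd3g, Cd4, Trac, Gata3, Il4 and Il13) moved in both directions. With calcitriol 2 were higher, 2 lower and 3 not called at an adjusted p of 0.05 (edgeR), with a median log2 change of 0.15. Over all genes tested 16.1% were higher and 15.5% lower. The 7 summed to 1706 to 1876 CPM in calcitriol and 1800 to 2096 CPM in vehicle libraries. The 4 B cell markers summed to 1.56 to 5.14 CPM in calcitriol and 1.69 to 6.74 CPM in vehicle libraries, and the 4 myeloid markers to at most 1.29 CPM in calcitriol and 1.12 CPM in vehicle libraries. Markers of NK cells, of mast cells and basophils, and of red cells each summed to at most 0.961 CPM in any library. Cd8b1 was at 5.65 ± 1.89 CPM in calcitriol and 5.98 ± 1.14 CPM in vehicle libraries, while Cd8a had 4 and 6 counts in the 2 groups. The labels give bulk cultures, so a change in RNA per cell and a change in the share of cells that express a gene cannot be told apart.

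With calcitriol, Rgs1 rose strongly, Rgs10 and Rgs14 rose by less, and Rgs16 fell, while Rgs2, Rgs3, Rgs11 and Rgs19 did not pass the test and Rgs18 was not detected. Of the 8 members with enough counts to be tested, 3 were thus higher and 1 lower at an adjusted p of 0.05 (edgeR quasi-likelihood test, Benjamini-Hochberg adjustment over all genes tested). Over all 11905 genes tested the share called was 31.5%, with 16.1% higher and 15.5% lower, and nothing particular to the family is read from counts this small. Of the members, 0 reached an absolute log2 change of 1, a size that 3.27% of all genes tested passed with a call (1.86% higher, 1.41% lower). The median log2 change was -0.02 for the 8 members and -0.01 for all genes tested. The libraries of the groups did not overlap for 1 member, Rgs1, and for 4.36% of all genes tested, with calcitriol above in 2.77% and below in 1.59%.

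**Figure D1:**
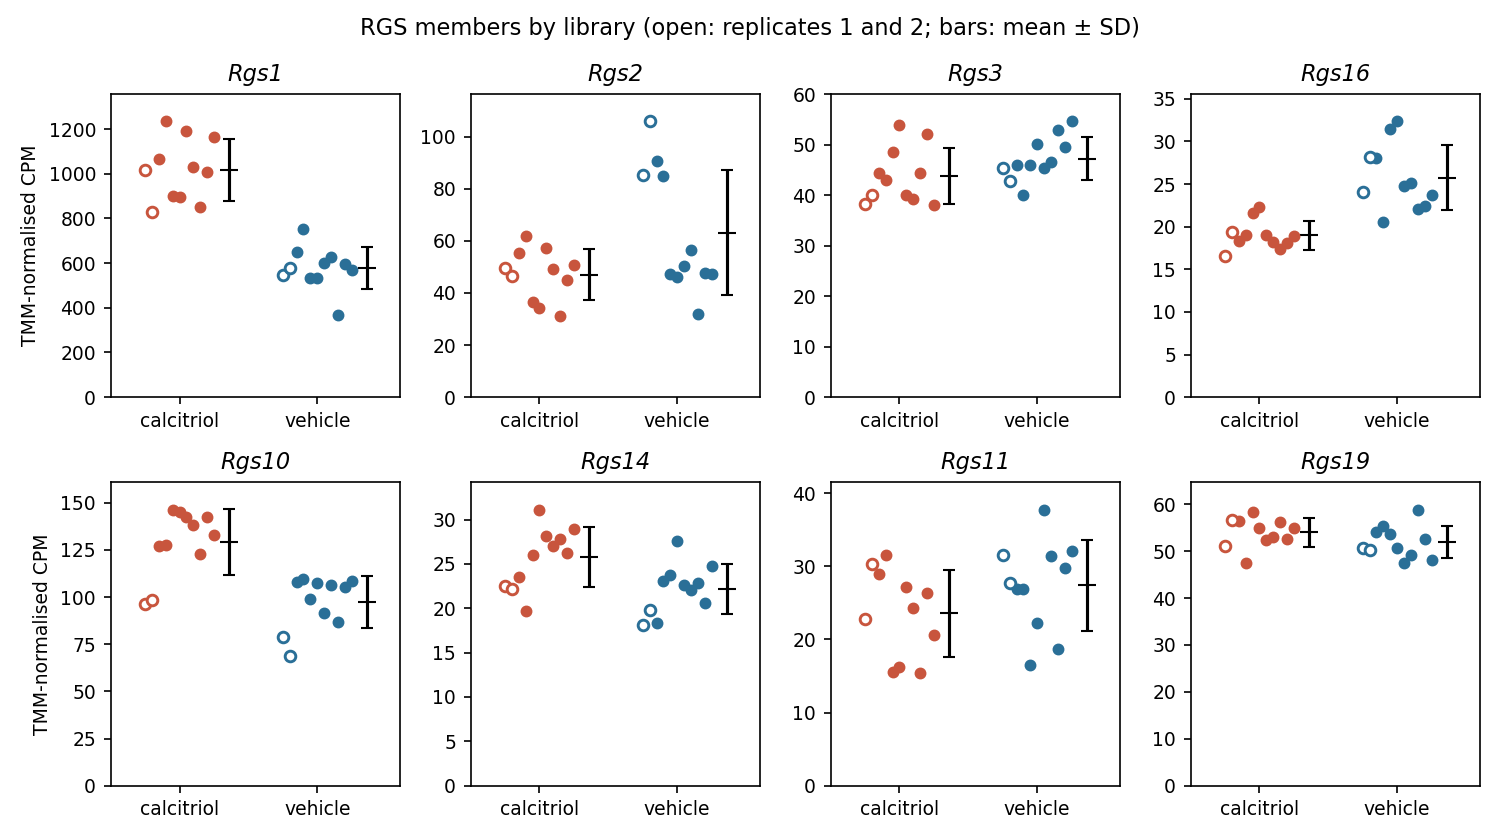
TMM-normalised CPM (y axis, from 0) of the 8 detected RGS members in each of 11 calcitriol (left) and 11 vehicle (right) libraries, with the mean and SD beside each group; open points are replicates 1 and 2. All 11 calcitriol points of Rgs1 lie above every vehicle point, and 4 vehicle libraries of Rgs2 lie between 85.0 and 106 CPM, above all others.

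Rgs1 (ENSMUSG00000026358, chromosome 1, 144242296 to 144249242, minus strand, GRCm38), which dampens chemokine receptor signalling in lymphocytes, was the most abundant RGS gene and had the largest change among the members. Its level was 828 CPM at the lowest, 1017 at the median and 1236 at the highest in calcitriol libraries, against 366, 577 and 751 CPM in vehicle libraries. All 11 calcitriol libraries lay above all 11 vehicle libraries. The means were 1017 ± 139 and 577 ± 94.3 CPM (SD, n = 11 each), a log2 change of 0.82 ± 0.09 (SE) or 1.76-fold (edgeR, adjusted p = 7.43e-08). The lowest vehicle value, 366 CPM in replicate 9, stood well under the next, 531 CPM in replicate 6.

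Rgs2 (ENSMUSG00000026360, chromosome 1, 143999338 to 144004161, minus strand), which acts mainly on alpha subunits of the Gq class and is needed in mice for full T cell proliferation, lies 238135 bases from Rgs1, with Rgs13 between them. It had 31.0, 49.3 and 61.8 CPM (lowest, median and highest) in calcitriol libraries and 32.0, 50.2 and 106 CPM in vehicle libraries. The medians were close and the groups overlapped, although vehicle replicates 1 to 4 lay above every calcitriol library. The wider vehicle range came from replicates 1 to 4, at 85.1, 106, 90.7 and 85.0 CPM, whereas the other 7 vehicle libraries lay between 32.0 and 56.6 CPM. The log2 change was -0.42 ± 0.18 (edgeR, unadjusted p = 0.0302, adjusted p = 0.0840), with a 95% interval of -0.78 to -0.07. Without vehicle replicate 9, the lowest of its group, the change was -0.49 and passed the threshold (edgeR, adjusted p = 0.0303). Without replicates 1 and 2 of both groups it was -0.26 (edgeR, adjusted p = 0.330), and these were the lowest and highest adjusted p over 31 alternative settings.

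Rgs16 (ENSMUSG00000026475, chromosome 1, 153740349 to 153745468, plus strand), an activation-induced regulator of T cell migration, fell by 0.43 ± 0.08 on the log2 scale, or 1.35-fold (edgeR, adjusted p = 7.43e-05). Calcitriol libraries had 16.5, 18.9 and 22.3 CPM (lowest, median and highest), and vehicle libraries 20.6, 24.7 and 32.4 CPM. In 9 of 11 calcitriol libraries the value was below every vehicle library, and the 2 exceptions were replicates 5 and 6, at 21.7 and 22.3 CPM. In the vehicle group the highest values were likewise those of replicates 5 and 6, at 31.5 and 32.4 CPM. The replicate numbers follow accession order only, and were not used to pair libraries. The annotation places the antisense gene Gm28513 over 10.1% of the exon sequence of Rgs16. It had 50 counts in calcitriol and 33 in vehicle libraries, against 1750 and 2391 for Rgs16, and the strand setting of the counting is not given in the sources used here.

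Rgs3 (ENSMUSG00000059810, chromosome 4, 62559847 to 62704001, plus strand), which has long and short protein forms that gene counts do not separate, was at 43.8 ± 5.59 CPM in calcitriol and 47.2 ± 4.26 CPM in vehicle libraries. The values ran from 38.0 to 54.0 CPM with calcitriol and from 40.1 to 54.7 CPM with vehicle, so the groups overlapped. Its log2 change was -0.11 with a 95% interval of -0.24 to 0.02 (edgeR, adjusted p = 0.243).

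Rgs18 (ENSMUSG00000026357, chromosome 1, 144752683 to 144775435, minus strand), a gene typical of platelets and their precursors, had 0 counts in all 22 libraries. A count of 0 allows a level of up to 0.0324 CPM in the calcitriol and 0.0311 CPM in the vehicle group (3 counts over a whole group, counting error only). Of the platelet markers Pf4, Gp9 and Ppbp, all had at most 3 counts in a group. Itga2b rose to 7.10 ± 1.28 CPM in calcitriol libraries, against 4.63 ± 1.21 CPM in vehicle libraries (log2 change 0.58 ± 0.14, edgeR adjusted p = 0.00187). Rgs18 lies 503441 bases from Rgs1 on the same strand, and Rgs21, also with 0 counts in every library, lies between them. Of the 9 members, Rgs1, Rgs2, Rgs16 and Rgs18 are on chromosome 1.

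Rgs10 (ENSMUSG00000030844, chromosome 7, 128373621 to 128418758, minus strand), a small RGS protein abundant in immune cells that acts on alpha subunits of the Gi class, rose by 0.41 ± 0.08 on the log2 scale, or 1.33-fold (edgeR, adjusted p = 0.000348). It had 96.5, 133 and 146 CPM (lowest, median and highest) in calcitriol libraries and 68.7, 106 and 110 CPM in vehicle libraries. Above every vehicle library were 9 of 11 calcitriol libraries. The other two were replicates 1 and 2, at 96.5 and 98.2 CPM, and replicates 1 and 2 were also the lowest of the vehicle group, at 79.0 and 68.7 CPM. Without these 4 libraries the means were 136 ± 8.70 CPM in calcitriol and 103 ± 8.38 CPM in vehicle libraries (SD, n = 9 each), and the log2 change was 0.41 (edgeR, adjusted p = 2.92e-06).

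Rgs14 (ENSMUSG00000052087, chromosome 13, 55369732 to 55384687, plus strand), which carries a GoLoco motif beside its RGS domain and so can also hold Gi alpha subunits in the GDP-bound state, rose by 0.23 ± 0.08 on the log2 scale, or 1.17-fold (edgeR, adjusted p = 0.0300). Calcitriol libraries had 19.7, 26.2 and 31.1 CPM (lowest, median and highest) and vehicle libraries 18.1, 22.7 and 27.5 CPM. The groups overlapped, with 4 of 11 calcitriol libraries above every vehicle library. The edgeR adjusted p moved to between 0.0514 and 0.0600, past the threshold, on leaving out one library at a time from a set of 6: replicates 6, 7 and 11 with calcitriol, or 1, 3 and 10 with vehicle. Rgs12, the remaining R12 gene and not one of the 9, rose by 0.38 ± 0.10 (edgeR, adjusted p = 0.00510), with 29.2 ± 5.88 CPM in calcitriol and 22.4 ± 3.04 CPM in vehicle libraries.

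Rgs11 (ENSMUSG00000024186, chromosome 17, 26202951 to 26211324, plus strand), best known from neurons and the retina, had 15.4, 24.2 and 31.5 CPM (lowest, median and highest) in calcitriol libraries and 16.5, 27.6 and 37.7 CPM in vehicle libraries. The groups overlapped, and the lowest 3 values of each group were those of replicates 5, 6 and 9. Rgs2 was lowest in the same 3 calcitriol libraries, at 36.4, 34.1 and 31.0 CPM. The log2 change was -0.25, with a 95% interval of -0.52 to 0.03 (edgeR, adjusted p = 0.200). Its coefficient of variation between libraries, 25.2% in the calcitriol and 22.7% in the vehicle group, compares with 20.8% and 38.0% for Rgs2 and with 5.69% to 16.3% for the 6 other detected members. The tested genes with the nearest start coordinates were Arhgdig, which overlaps Rgs11, and Fam234a, which does not. Arhgdig and Fam234a fell, by 0.63 ± 0.21 and 0.47 ± 0.08 on the log2 scale (edgeR, adjusted p = 0.0221 and 6.43e-05). Arhgdig runs on the opposite strand over 3.28% of the exon sequence of Rgs11. Gnb5, the partner of R7 proteins, was at 43.6 ± 12.8 CPM in calcitriol and 39.4 ± 7.41 CPM in vehicle libraries (edgeR, adjusted p = 0.540). Rgs9, a further R7 gene, averaged 2.78 ± 0.527 CPM with calcitriol and 2.72 ± 1.29 CPM with vehicle, a difference of 0.05 on the log2 scale (edgeR, adjusted p = 0.887).

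Rgs19 (ENSMUSG00000002458, chromosome 2, 181688419 to 181693977, minus strand), an RGS protein with a cysteine-rich lipid-modified stretch that acts on alpha subunits of the Gi class, varied least. It had 47.5, 55.0 and 58.4 CPM (lowest, median and highest) in calcitriol libraries and 47.5, 50.7 and 58.9 CPM in vehicle libraries, with near-identical ranges. The log2 change was 0.06, with a 95% interval of -0.03 to 0.15 (edgeR, adjusted p = 0.381).

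**Figure D2:**
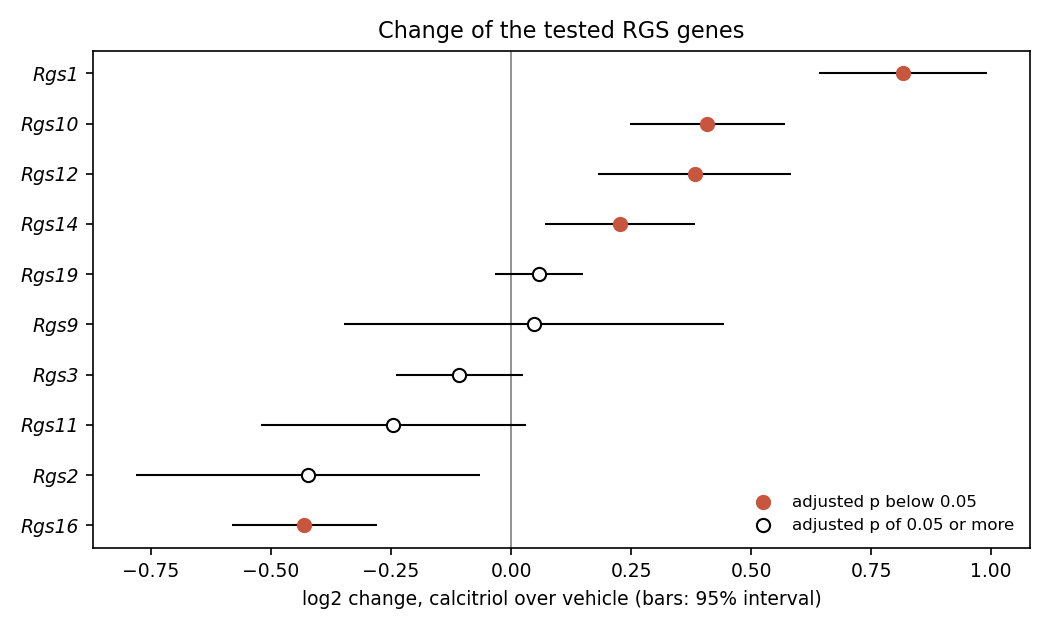
Log2 change of calcitriol over vehicle (x axis) with its 95% interval for the 8 tested members and the 2 other tested RGS genes, Rgs12 and Rgs9. Filled points passed an adjusted p of 0.05: Rgs1, Rgs10, Rgs12 and Rgs14 on the higher side and Rgs16 on the lower side.

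The upstream sequences of the called members are shown for Rgs10, which rose, and Rgs16, which fell, with that of Rgs2 as the gene whose vehicle libraries split. RefSeq promoters on GRCm38.p6, from 250 bases before to 50 bases after the annotated start, were matched for 5 of the 9 members, and those of Rgs1, Rgs11, Rgs14 and Rgs18 were not searched. Capitals mark the 6-base motifs that were searched on both strands.
Rgs10 promoter, chr7:128418123-128418422, minus strand: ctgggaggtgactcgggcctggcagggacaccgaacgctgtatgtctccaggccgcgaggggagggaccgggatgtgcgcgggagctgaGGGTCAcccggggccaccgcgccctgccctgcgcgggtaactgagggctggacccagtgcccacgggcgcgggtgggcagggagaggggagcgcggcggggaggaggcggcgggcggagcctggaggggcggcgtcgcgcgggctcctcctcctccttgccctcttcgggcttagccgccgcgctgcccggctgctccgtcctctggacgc
Rgs16 promoter, chr1:153740103-153740402, plus strand: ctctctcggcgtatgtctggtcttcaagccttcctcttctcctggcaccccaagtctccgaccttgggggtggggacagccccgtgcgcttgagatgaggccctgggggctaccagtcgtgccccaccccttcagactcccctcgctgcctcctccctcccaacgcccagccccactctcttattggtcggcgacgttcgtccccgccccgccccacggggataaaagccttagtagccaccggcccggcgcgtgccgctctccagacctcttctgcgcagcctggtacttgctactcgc
Rgs2 promoter, chr1:144004100-144004399, minus strand: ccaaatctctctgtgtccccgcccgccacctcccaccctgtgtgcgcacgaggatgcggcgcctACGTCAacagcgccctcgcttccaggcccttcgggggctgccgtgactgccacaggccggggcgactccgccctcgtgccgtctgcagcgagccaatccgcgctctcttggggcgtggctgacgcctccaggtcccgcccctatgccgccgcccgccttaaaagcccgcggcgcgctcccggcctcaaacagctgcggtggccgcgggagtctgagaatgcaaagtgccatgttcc
The motifs searched were the nuclear receptor half-site AGGTCA and its variants, namely GGTTCA, the form AGTTCA and the form GGGTCA, the NFAT core TGGAAA, the cyclic AMP response element core TGACGT and the TATA box TATAAA. In the Rgs10 window the only match was one GGGTCA, a motif that 13.7% of all 32851 promoters in the table hold. The Rgs2 window held TGACGT on the opposite strand (printed as ACGTCA), which 7.51% of all promoters hold, and the Rgs16 window held none of the 7. Of the windows not shown, that of one Rgs19 start held GGGTCA and those of both Rgs3 starts TATAAA. The direct repeat of half-sites spaced by 3 bases, the classical form of a vitamin D response element, occurred in 0 of the promoters of these 5 members and in 0.0396% of all. These windows were rich in G and C, at 76.0%, 66.0% and 70.0% against a median of 52.7% over all promoters. They held 34, 22 and 33 CG dinucleotides, against a median of 7. A match is a description of the letters only, and no binding was measured.

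Per length of exon sequence the members spanned a wide range of levels, and the order at the top was the same with calcitriol and with vehicle. The length used was the union of all annotated exons of a gene. For Rgs1 that union was 6.947 kb, the whole span of the gene, so its level per kb and its share may be understated. Comparisons between genes depend on this choice of length. Rgs1 had a mean of 146 CPM per kb (119 to 178) in calcitriol and 83.1 CPM per kb (52.6 to 108) in vehicle libraries, followed by Rgs10 at 75.4 ± 10.2 and 56.9 ± 8.18 CPM per kb. Next came Rgs19, at 24.2 ± 1.38 with calcitriol and 23.3 ± 1.52 CPM per kb with vehicle (SD, n = 11 each). Rgs2 had a mean of 12.9 (8.54 to 17.0) with calcitriol and 17.4 CPM per kb (8.82 to 29.2) with vehicle, and Rgs16 had 8.11 ± 0.724 and 11.0 ± 1.64 CPM per kb. With calcitriol the ranges of Rgs1, Rgs10, Rgs19 and Rgs2 did not overlap one another. With vehicle those of Rgs1 and Rgs10 overlapped, as did those of Rgs19 and Rgs2, although Rgs1 was above Rgs10 within each of the 11 libraries. Rgs14, Rgs11 and Rgs3 followed at between 4.06 and 6.07 CPM per kb with calcitriol and between 4.37 and 6.51 CPM per kb with vehicle, and their ranges overlapped. Summed over the 9 members and the 12 other RGS genes, the level averaged 287 CPM per kb (243 to 324) in calcitriol and 211 CPM per kb (166 to 248) in vehicle libraries. Rgs1 made up 50.9 ± 3.34% of that sum with calcitriol and 39.1 ± 3.07% with vehicle. Rgs16 made up 2.85 ± 0.359% and 5.26 ± 0.917%, and Rgs10 26.3 ± 2.97% and 27.0 ± 3.36%. Such shares depend on one another, since a rise of Rgs1 lowers the rest.

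**Figure D3:**
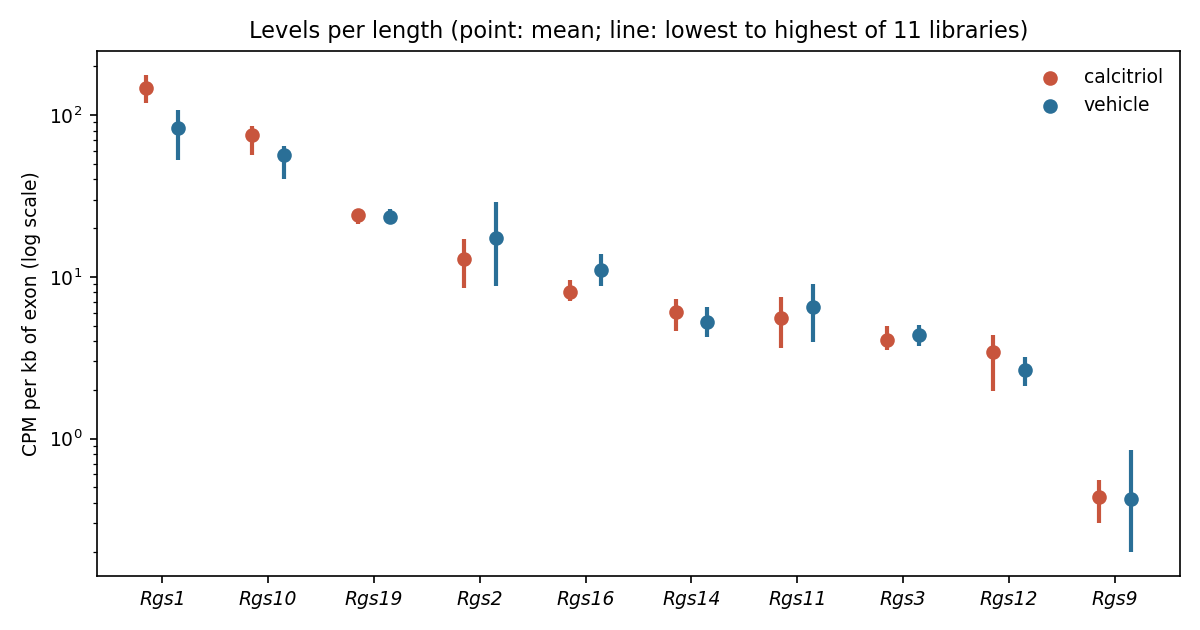
TMM-normalised CPM per kb of exon sequence (y axis, log scale) of the 8 detected members and of Rgs12 and Rgs9, with calcitriol left and vehicle right; points are means and lines run from the lowest to the highest of 11 libraries. Rgs1 and Rgs10 lead in both groups, and the lines of Rgs14, Rgs11 and Rgs3 overlap.

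Of the 12 other RGS genes, Rgs12 and Rgs9 passed the filter on low counts and 10 did not. Rgs8 was at 0.589 ± 0.407 CPM in calcitriol and 1.11 ± 0.828 CPM in vehicle libraries and was not tested. Rgs13, a gene typical of germinal centre B cells and mast cells, had 4 and 5 counts in the groups, and Rgs20 had 12 and 9. Rgs4, Rgs6, Rgs7, Rgs17 and Rgs22 had at most 3 counts in a group, and Rgs5 and Rgs21 had 0 in every library. Among genes with an RGS-like domain outside the family, 3 of 12 tested rose and 0 fell, where over all genes tested 16.1% were higher and 15.5% lower, and the median log2 change was 0.08. The receptor kinase Grk6, which lies 60385 bases from Rgs14, rose by 0.22 ± 0.07, and Arhgef1 and Arhgef12, exchange factors for RhoA, by 0.18 ± 0.06 and 0.15 ± 0.06 (edgeR, adjusted p = 0.0105, 0.0314 and 0.0435). Snx13 was not called, at 0.18 (edgeR, adjusted p = 0.0875). In the GoLoco and exchange factor list 0 of 6 rose and 2 fell. These were Ric8a, a chaperone and exchange factor of alpha subunits, at -0.31 ± 0.06, and Rap1gap at -0.53 ± 0.16 (edgeR, adjusted p = 0.000465 and 0.0150), while Gpsm1 and Gpsm3 were not called, at 0.16 and 0.17. The median log2 change of that list was -0.01.

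Among G protein alpha subunits of all classes, 1 of 11 tested rose and 2 fell (median log2 change -0.06). These shares were near those of all genes tested (16.1% higher and 15.5% lower). Gna15, a Gq-class subunit of blood cells, rose to 21.9 ± 2.47 CPM in calcitriol libraries, against 11.4 ± 2.30 CPM in vehicle libraries (log2 change 0.94 ± 0.10, edgeR adjusted p = 2.05e-08). Its calcitriol libraries lay above every vehicle library, as for 2.77% of all genes tested. Gnaz, an alpha subunit of the Gi class, changed by -1.07 ± 0.24 at 2.42 ± 0.985 and 4.89 ± 1.86 CPM (edgeR, adjusted p = 0.00123). Gnai3 changed by -0.14 ± 0.05 (edgeR, adjusted p = 0.0341), and Gnal was not called, at -0.49 (edgeR, adjusted p = 0.0523). Gnai2, the main Gi subunit of lymphocytes, named here for that role, was at 299.6 ± 22.2 CPM in calcitriol and 298.9 ± 18.0 CPM in vehicle libraries (log2 change 0.00, edgeR adjusted p = 0.971). Of 8 beta and gamma subunits, 1 rose and 3 fell (median 0.03): Gngt2 rose by 0.50 ± 0.06, and Gnb4, Gng5 and Gnb2 changed by -0.53 ± 0.09, -0.19 ± 0.05 and -0.14 ± 0.05.

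Downstream of the G protein, 4 of 14 effectors and arrestins rose and 4 fell (median -0.03, against 16.1% higher and 15.5% lower over all genes tested). The subunits of phosphoinositide 3-kinase gamma, the form that beta and gamma subunits activate, did not move together. The catalytic subunit Pik3cg rose by 1.11 ± 0.13 and the adaptor Pik3r6 by 3.51 ± 0.44, with 10.9 ± 7.83 CPM in calcitriol and 0.891 ± 0.911 CPM in vehicle libraries. The other adaptor, Pik3r5, changed by -0.61 ± 0.10 (edgeR, adjusted p = 5.48e-07 for Pik3cg, 1.34e-06 for Pik3r6 and 2.21e-05 for Pik3r5). Plcb1, a phospholipase C that Gq activates, changed by -1.36 ± 0.16 (edgeR, adjusted p = 1.55e-07). Upstream, 19 of 39 tested leukocyte receptors rose and 6 fell, where over all genes tested 16.1% were higher and 15.5% lower. Their median log2 change was 0.17, against -0.01 over all genes. Among those with the smallest p were the protease-activated receptors F2rl1 and F2r, at 2.42 ± 0.18 and 0.94 ± 0.07, and the oxysterol receptor Gpr183 at 1.54 ± 0.13. For each of these 3 the calcitriol libraries lay above every vehicle library (edgeR, highest adjusted p = 7.64e-10). Over all genes tested this held for 2.77%, and the 3 were named for their small p.

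**Figure D4:**
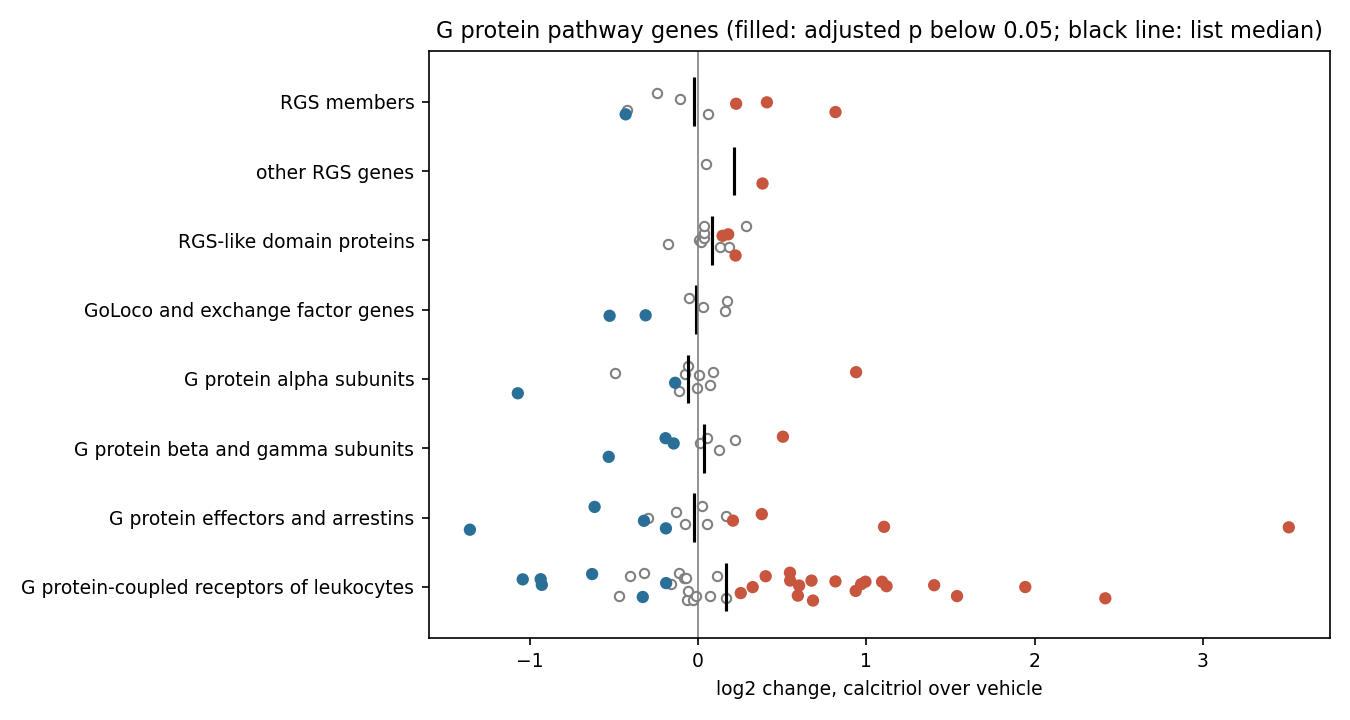
Log2 change of calcitriol over vehicle (x axis) of each tested gene in the RGS members and 7 further G protein pathway lists (rows); filled points passed an adjusted p of 0.05 and black lines are list medians. The receptors show 19 filled points on the higher side and 6 on the lower, and the members 3 and 1.

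Likeness to other genes was measured over all 22 libraries as the root mean square difference between log2 CPM values centred on each gene's mean, and it reflects the difference between the groups as well as the spread within them. For Rgs1 the most similar genes were Ets1, a lymphoid transcription factor, at 0.171 and Nemp2 at 0.175, against a median of 0.529 over all genes. Ets1 rose by 0.68 ± 0.06 and Nemp2 by 0.75 ± 0.08. For Rgs16 they were Pparg, a lipid-sensing nuclear receptor, at 0.145 and Plin2, a lipid droplet protein, at 0.148 (median 0.351). Both fell, by 0.51 ± 0.05 and 0.42 ± 0.06 on the log2 scale. For Rgs2 they were Stx11, at 0.207, and Mphosph6, at 0.218 (median 0.520), with log2 changes of -0.31 ± 0.11 and -0.31 ± 0.10.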

How the data were processed

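RNA-seq of 22 libraries, 11 with calcitriol and 11 with vehicle, was analysed from raw counts per Ensembl gene that the authors deposited, 1 column per library. Libraries had been made with a stranded total RNA kit, per the labels' protocols. The build GRCm38 and the tools HTSeq 0.13.5 and STAR 2.7.10a are named, per the submitters' processing notes, with settings not given in the sources used here. Symbols, coordinates and exon lengths (the union of a gene's annotated exons) came from GENCODE M21, on the same build. Of 49671 identifiers, 259 had no entry there. Genes were kept with filterByExpr, which left 11905, and scaled with TMM factors. The comparison was edgeR 4.0.16 (R 4.3.3), quasi-likelihood F test, robust, no covariate, Benjamini-Hochberg adjustment over all genes tested, threshold 0.05. Standard errors are the log2 change over the root of F, and 95% intervals span 1.96 of them on either side. Alternatives used limma 3.58.1 (voom), DESeq2 1.42.0, other scaling and filters, and fewer libraries. No 2 libraries of a group agreed within sampling noise (chi-square per degree of freedom of at least 2.58 over 110 pairs), and none was merged.

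The members, gene lists and settings were chosen with earlier results of these data known. Named were all 9 members, the other RGS genes, up to 4 genes with the smallest p in each list (1 result is not reported here), and the 2 genes most like each of the 3 members with the largest change. Neighbouring genes were taken by position, and Gnb5, Gnai2, Cd4, Cd8a, Cd8b1 and Itga2b were named for their role after their values were seen.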

Additional observations from a re-analysis of the deposited data

How the results depend on the processing

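The 8 tested members kept their direction under 31 alternatives, 22 of which each left out 1 library. RGS members called numbered 3 to 5 over the libraries left out in turn and 4 under each of the 9 other settings; genes called in all numbered 3467 to 3806 and 2881 to 3944. With each of the 22 libraries left out in turn, log2 changes ran from 0.76 to 0.86 for Rgs1, 0.37 to 0.45 for Rgs10, -0.46 to -0.39 for Rgs16, 0.20 to 0.26 for Rgs14 and -0.49 to -0.32 for Rgs2. The calls of Rgs1, Rgs10 and Rgs16 held throughout, with adjusted p of at most 3.13e-05, 0.00342 and 0.00117, each with sets of mutually most similar libraries summed (7 sets per group). Rgs3, Rgs11 and Rgs19 were called in none. Rgs9, not called, turned to -0.021 with sets summed and ran from -0.029 to 0.18 with 1 library left out, below 0 without vehicle replicate 6 or 9; the cause was not tested. The number of RGS-like domain genes called fell to 1, against 3, with sets summed and without any of 6 single libraries. These were calcitriol replicates 5, 6 and 10 and vehicle replicates 1, 4 and 10. The number was 2 without calcitriol replicate 7, 8, 9 or 11, or without vehicle replicate 2, 3, 5, 8 or 11. It was also 2 with no filter on low counts. In the GoLoco and exchange factor list 1 gene, against 2, was called with sets summed. Scaling moved the median of all genes by under 0.1. No paired analysis was possible because the labels number no replicates, and accession order is no record of pairing. On the second principal component some same-numbered libraries nevertheless lay close. Replicates 5 and 6 were at 9.93 and 11.2 with calcitriol and at 8.69 and 9.60 with vehicle. Others lay further apart, such as replicate 3, at -1.40 with calcitriol and -6.50 with vehicle. Whether libraries share a source was not tested. With 4 to 12 counts per group, Rgs13 and Rgs20 had too few counts to be tested.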
